A study of Caenorhabditis elegans with 6 samples.

Results

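The sex determination pathway of Caenorhabditis elegans is described here by 10 of its genes, xol-1, sdc-2, her-1, tra-2, fem-1, fem-3, tra-1, fog-1, fog-3 and mab-3. They were chosen by name, by a rule that uses no measured value, though earlier results of these data were known. They were looked up by WormBase identifier among the 46756 genes of the count table. All 10 were present, and all 10 passed the minimum of 10 counts summed over the libraries that set the 18428 genes tested. RNA of whole hermaphrodites was sequenced on adulthood day 2 in the strain ACH93, which carries a muscle exopher RFP marker and a mitochondrial GFP marker, both driven by the myo-3 promoter of body wall muscle, in the N2 wild-type background. Worms had been grown on NGM plates with E. coli OP50 at 20 °C, either in populations of 10 per plate (3 libraries) or as solitary animals (3 libraries), to ask which transcripts follow the presence of other hermaphrodites. The reporters, the food and the age were shared by both conditions, and the number of worms behind each library is not given in the sources used here.

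In this animal sex is set by the number of X chromosomes relative to autosomes. A single X leaves the switch gene xol-1 active in the embryo and leads to males, while a pair of X chromosomes represses it, which frees SDC-2 to silence her-1 and to start dosage compensation of the X. Without the HER-1 ligand, the membrane protein TRA-2 holds the FEM proteins in check, and the transcription factor TRA-1 stays active and represses male genes such as mab-3. The hermaphrodite germ line makes sperm for a short time in the last larval stage, which needs fog-1, fog-3 and the fem genes, and then makes oocytes only. Much of this control acts on translation and on protein stability, which read counts do not measure.

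Counts on genes summed to 57077055 to 62794403 per library in worms grown 10 per plate and to 55176436 to 62269301 in solitary worms, so the depths overlapped. An adjusted p under 0.05 in edgeR's quasi-likelihood test was reached by 44 of the 18428 genes (0.239%), and the log2 fold change (10 per plate over solitary) rose with exonic length across the 10491 genes that averaged at least 100 counts (Spearman rho 0.484, across genes, which are not independent replicates). Whole-worm RNA mixes soma, germ line and the embryos in the uterus, so fewer cells of a type and less RNA per cell cannot be told apart. The samples had the defining transcripts of egg-laying hermaphrodites. The 6 vitellogenin genes together gave 54359 to 63702 CPM (a gene's counts relative to the library's total, scaled by edgeR's TMM method) in worms grown 10 per plate and 55026 to 61568 CPM in solitary worms, led by vit-6 and vit-2. The 7 oocyte markers, led per kilobase by cbd-1 and puf-5, gave 9008 to 9531 CPM in worms grown 10 per plate and 8972 to 9315 CPM in solitary worms. Transcripts of male neurons and the male gonad were low: the 8 markers summed to 1.32 to 1.60 CPM in worms grown 10 per plate and to 1.07 to 1.34 CPM in solitary worms, with cwp-1 at 0 counts in all 6 libraries and at most 6 counts of the male polycystin pkd-2 in any one. Most of that sum came from try-5, a seminal fluid protease gene with 37 to 44 counts in worms grown 10 per plate and 27 to 37 in solitary worms, and from cwp-4, with 19 to 42 counts in worms grown 10 per plate and 18 to 33 in solitary worms. Sperm markers were as low, at 2.01 to 2.66 CPM in worms grown 10 per plate and 2.22 to 2.40 CPM in solitary worms over 36 genes, of which 8 were at 0 counts. The msp genes among them are near-identical copies that uniquely placed reads could miss, so this sum is uncertain.

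None of the 10 sex determination genes passed the test for growth density (0 with an adjusted p under 0.05 in edgeR's quasi-likelihood test, beside 0.239% of all genes tested, and 0 in DESeq2's Wald test, beside 2.36%). DESeq2 gave no adjusted p for xol-1, her-1, fog-3 and mab-3, so its 0 does not cover them. The 2.36% is a share of all genes tested, with or without such a value. An unadjusted p under 0.05 was reached by 1 of the 10, tra-2, where 11.9% of all genes tested reached it, and by 0 of them in DESeq2's Wald test. The log2 fold changes lay between -0.29 and 0.17, 5 above and 5 below 0, with a median of -0.00, against a median of 0.00 over all genes tested. What set the genes apart was their level, which spanned a large range along the pathway and kept nearly the same order in every library.

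Per kilobase of exon, fem-3, fem-1, tra-2 and fog-1 were the most abundant of the 10, and xol-1, her-1, fog-3 and mab-3 the least. The highest level was that of fem-3, at 52.3 ± 0.706 CPM per kb in worms grown 10 per plate and 51.1 ± 0.815 in solitary worms (SD, n = 3 libraries each, as in all values written with ±). It was followed by fem-1 at 45.1 ± 1.07 CPM per kb in worms grown 10 per plate and 43.1 ± 0.634 in solitary worms. Then came tra-2 at 25.3 ± 0.525 CPM per kb in worms grown 10 per plate and 23.8 ± 0.316 in solitary worms, and fog-1 at 17.1 ± 1.60 in worms grown 10 per plate and 18.5 ± 0.359 in solitary worms. These genes stood at percentiles 82.1, 79.6, 72.2 and 68.6 of the genes tested, ordered by mean level per kilobase over the 6 libraries. tra-1 and sdc-2 were near the middle, at percentiles 54.5 and 48.2. xol-1, her-1 and fog-3 lay close together, at no more than 1.03 CPM per kb in any library (percentiles 36.0, 34.9 and 33.0), and mab-3 was lowest, at percentile 15.2. Most neighbours in this order were separated in all 6 libraries without overlap of their ranges, from fem-3 over fem-1 (1.17-fold in mean level) to fog-3 over mab-3 (4.33-fold). The exceptions were xol-1 against her-1 and her-1 against fog-3, whose ranges overlapped and whose order held in 4 of the 6 libraries. The order of all 10 was the same with the longest annotated transcript in place of the union of exons.

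**Figure D1:**
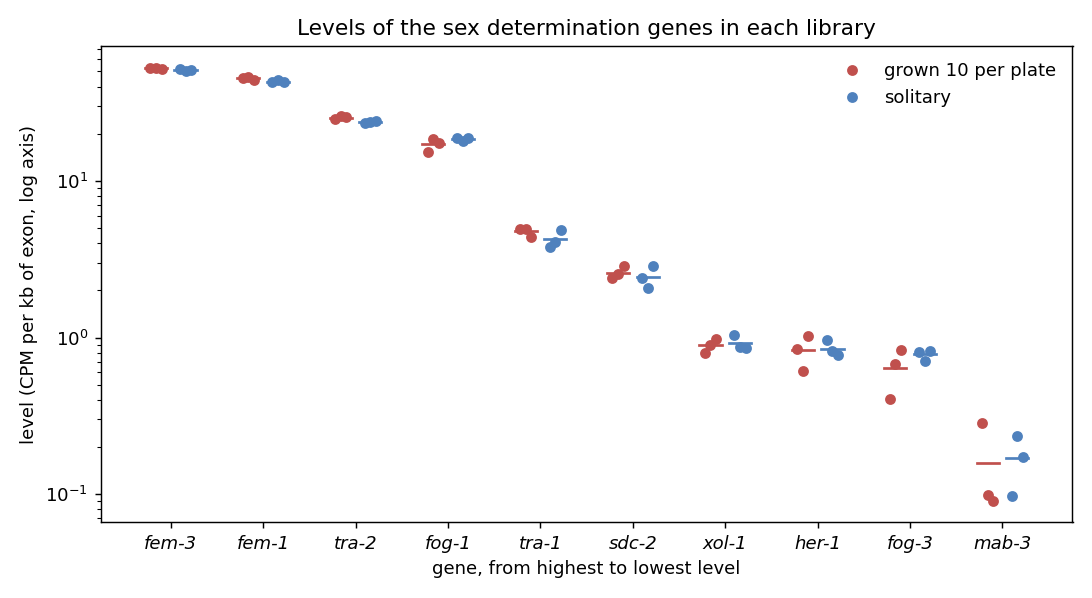
Level of each sex determination gene in CPM per kilobase of exon (log axis), with 1 point per library and a bar at the mean of the 3 libraries, for worms grown 10 per plate (red, left) and solitary worms (blue, right). fem-3 and fem-1 lie at 42.6 CPM per kb or more in every library, whereas xol-1, her-1, fog-3 and mab-3 reach at most 1.03.

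At the top of the pathway, xol-1 encodes the protein whose activity in the early embryo directs male development. xol-1 (WBGene00006962, chromosome X of WBcel235, 8041313 to 8044409, plus strand) had 122, 131 and 142 counts in replicates 1 to 3 of worms grown 10 per plate and 138, 131 and 124 counts in the solitary replicates. The conditions overlapped throughout, at 2.20 ± 0.228 CPM in worms grown 10 per plate and 2.27 ± 0.231 CPM in solitary worms. The log2 fold change of xol-1 was -0.05, with a 95% interval from -0.40 to 0.31 and an edgeR quasi-likelihood adjusted p of 0.941, so a change beyond 1.24-fold upward or to under 0.757 of the solitary level lay outside the interval. The 10 early zygotic embryo markers summed to 16.9 to 22.3 CPM in worms grown 10 per plate. In solitary worms they summed to 17.0 to 19.4 CPM. How much of the xol-1 signal, or of the signal of these markers, came from embryos was not tested.

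sdc-2, which xol-1 represses, encodes the protein that brings the dosage compensation complex to hermaphrodite X chromosomes and silences her-1. sdc-2 (WBGene00004746, chromosome X, 11522707 to 11533450, plus strand) measured 22.1, 23.6 and 26.3 CPM in worms grown 10 per plate and 22.2, 19.0 and 26.5 CPM in solitary worms. Replicate 3 was the highest of both conditions, and the lowest library was solitary replicate 2. Its log2 fold change was 0.09 (SE 0.12, edgeR quasi-likelihood adjusted p = 0.833), which became -0.05 once the trend with length had been removed. Within a library, the level per kilobase of sdc-2 was 2.85 to 2.98 times that of xol-1 in worms grown 10 per plate and 2.33 to 3.31 times in solitary worms. The antisense RNA gene anr-16 overlaps 1181 of the 9247 exonic nucleotides of sdc-2 (12.8%), and since the strand setting of the counting is not given in the sources used here, reads from that stretch cannot be assigned with certainty.

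her-1 encodes the small secreted ligand that binds TRA-2 and promotes male development, and in hermaphrodites it is held down by the SDC proteins. her-1 (WBGene00001842, chromosome V, 9697015 to 9702035, plus strand) had 59, 41 and 68 counts in worms grown 10 per plate and 59, 56 and 51 counts in solitary worms. Both the lowest and the highest library were of worms grown 10 per plate, with the solitary libraries between them. The mean was 0.933 ± 0.236 CPM in worms grown 10 per plate and 0.959 ± 0.111 CPM in solitary worms. Its log2 fold change of -0.04 had an interval from -0.56 to 0.49 (edgeR quasi-likelihood adjusted p = 0.969), which reaches from 0.676 to 1.40 of the solitary level. her-1 was nonetheless counted in every library, at a level per kilobase 24.7 to 42.2 times below that of its receptor gene tra-2 in worms grown 10 per plate and 24.4 to 31.1 times below it in solitary worms.

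tra-2 is the gene for the HER-1 receptor, which promotes hermaphrodite development by binding FEM-3. Of the 10 genes, only tra-2 reached an unadjusted p under 0.05 in edgeR's quasi-likelihood test, as 11.9% of all genes tested did. tra-2 (WBGene00006605, chromosome II, 6955384 to 6965673, minus strand) measured 125, 131 and 129 CPM in worms grown 10 per plate, against 119, 121 and 122 CPM in solitary worms. The conditions did not overlap, with the lowest of the 10-per-plate libraries above the highest solitary one (exact permutation test, two-sided, p = 0.1, which is as small as this design can give). Its mean was 128 ± 2.66 CPM in worms grown 10 per plate and 120 ± 1.60 CPM in solitary worms, a log2 fold change of 0.09 (95% interval 0.01 to 0.17). The unadjusted p was 0.0342 and the adjusted p 0.372 in edgeR's quasi-likelihood test, so the difference did not pass the threshold. tra-2 has 5062 exonic nucleotides. At that length the trend fitted over genes averaging at least 10 counts amounted to 0.10 on the log2 scale. With the trend removed from each library, tra-2 measured 117, 129 and 125 CPM in worms grown 10 per plate and 122, 122 and 130 CPM in solitary worms, the conditions overlapped, and the log2 fold change was -0.01 (95% interval -0.11 to 0.09). The 3 annotated transcripts of tra-2, which include short forms, were counted together, and 26 of its exonic nucleotides overlap ceh-38 on the opposite strand.

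The fem genes act below tra-2. FEM-1 is an ankyrin repeat protein that, with FEM-3 and the phosphatase FEM-2, directs the CUL-2 ubiquitin ligase to TRA-1, and the same proteins are needed for sperm. fem-1 (WBGene00001411, chromosome IV, 5533140 to 5537962, minus strand) measured 106, 108 and 103 CPM in worms grown 10 per plate, against 100, 103 and 101 CPM in solitary worms. Each library of worms grown 10 per plate lay above each solitary library, by 0.496 CPM at the narrowest gap (two-sided exact permutation test, p = 0.1). The log2 fold change of fem-1 was 0.07 (SE 0.04, edgeR quasi-likelihood adjusted p = 0.533). tra-2 and fem-1 were the 2 of the 10 genes whose conditions did not overlap, where 18.3% of all genes tested did not overlap and 8.51% did so with the higher values in worms grown 10 per plate. With the length trend removed, the log2 fold change of fem-1 was 0.03.

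fem-3 (WBGene00001413, chromosome IV, 9104966 to 9107607, plus strand), whose messenger RNA is repressed in the germ line to end sperm production, measured 87.7, 88.5 and 86.2 CPM in worms grown 10 per plate and 86.5, 83.9 and 86.0 CPM in solitary worms. The conditions overlapped by a single library, solitary replicate 1. The log2 fold change of fem-3 was 0.03 (95% interval -0.05 to 0.12, edgeR quasi-likelihood adjusted p = 0.794), and an increase beyond 1.08-fold lay outside that interval. The receptor and its target can also be set against each other within a library. The level per kilobase of tra-2 was 0.473, 0.488 and 0.494 of that of fem-3 in worms grown 10 per plate and 0.454, 0.476 and 0.469 of it in solitary worms. The ratio of fem-1 to fem-3 lay between 0.854 and 0.872 in worms grown 10 per plate and between 0.824 and 0.873 in solitary worms. Both ratios overlapped between the conditions.

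tra-1, at the end of the pathway, encodes a zinc finger transcription factor of the GLI family that represses male genes in hermaphrodites. tra-1 (WBGene00006604, chromosome III, 11170890 to 11195201, minus strand) measured 24.6, 24.7 and 22.0 CPM in worms grown 10 per plate, against 18.9, 20.2 and 24.1 CPM in solitary worms. Solitary replicates 1 and 2 were the lowest, while solitary replicate 3 lay within the range of worms grown 10 per plate. The log2 fold change of tra-1 was 0.17, the highest of the 10 (95% interval -0.04 to 0.38, edgeR quasi-likelihood adjusted p = 0.517). It was 0.07 with the length trend removed, and with single libraries left out it ran from 0.10 without solitary replicate 1 to 0.28 without solitary replicate 3 (edgeR quasi-likelihood adjusted p = 0.827 and 0.103). tra-1 is almost as long in exons as tra-2 (4987 nucleotides), so a trend with length shifts both alike, but tra-1 varied far more between solitary libraries, with a coefficient of variation of 12.7% against 1.33% for tra-2. Per kilobase, tra-2 exceeded tra-1 by 5.02 to 5.77 times in worms grown 10 per plate and by 4.99 to 6.18 times in solitary worms.

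**Figure D2:**
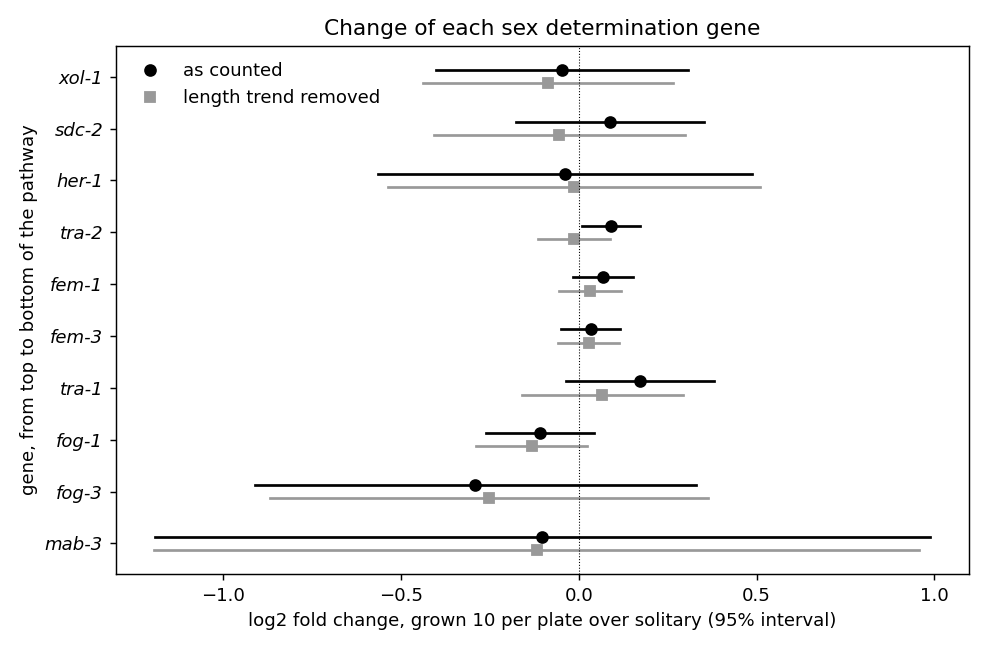
Log2 fold change of each gene, grown 10 per plate over solitary, with its 95% interval from edgeR's quasi-likelihood fit, as counted (black circles) and with the length trend removed (grey squares). Only the interval of tra-2 as counted leaves out 0, and it includes 0 once the trend is removed.

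fog-1 and fog-3 act below tra-1 in the germ line, where both are needed for cells to become sperm and not oocytes. FOG-1 is an RNA-binding protein of the CPEB family and FOG-3 a protein of the Tob family. Although they serve the same step, their transcripts differed widely. fog-1 (WBGene00001481, chromosome I, 3211046 to 3217267, plus strand) measured 32.6, 39.3 and 36.8 CPM in worms grown 10 per plate and 39.5, 38.2 and 39.5 CPM in solitary worms. Replicate 1 of worms grown 10 per plate was the lowest library and the conditions overlapped, with a log2 fold change of -0.11 (SE 0.07, edgeR quasi-likelihood adjusted p = 0.585) that was -0.04 without that library. fog-3 (WBGene00001483, chromosome I, 10016765 to 10018121, plus strand) had 25, 40 and 49 counts in worms grown 10 per plate and 44, 43 and 48 counts in solitary worms. Its lowest library was again replicate 1 of worms grown 10 per plate, whose 25 counts have a 95% Wilson interval of 16.9 to 36.9 counts, for counting error only. The log2 fold change of fog-3 was -0.29 (95% interval -0.91 to 0.33, edgeR quasi-likelihood adjusted p = 0.754) and ran from -0.54 without replicate 3 of worms grown 10 per plate to -0.05 without replicate 1. Per kilobase, fog-1 exceeded fog-3 by 20.7 to 38.1 times in worms grown 10 per plate and by 22.7 to 25.5 times in solitary worms. The sperm genes spe-9 and fer-1, counted in the same libraries, had 39 to 46 and 29 to 45 counts in worms grown 10 per plate and 50 to 56 and 23 to 39 counts in solitary worms.

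mab-3 encodes a DM-domain transcription factor that represses vitellogenin genes in the male intestine and patterns male sense organs, and TRA-1 represses it in hermaphrodites. mab-3 (WBGene00003100, chromosome II, 9732137 to 9738035, plus strand) had 33, 11 and 10 counts in worms grown 10 per plate and 10, 27 and 19 counts in solitary worms. A single library stood above the others of its condition among worms grown 10 per plate, replicate 1, and the 3 solitary libraries were spread over nearly the same range. The mean was 0.296 ± 0.205 CPM in worms grown 10 per plate and 0.318 ± 0.130 CPM in solitary worms. Its log2 fold change of -0.10 had an interval from -1.19 to 0.99 (edgeR quasi-likelihood adjusted p = 0.958), which reaches from 0.438 to 1.98 of the solitary level. The other male-side targets of TRA-1 and DM-domain genes, a list of 6, summed to 2.34 to 2.99 CPM in worms grown 10 per plate. In solitary worms they summed to 2.09 to 2.84 CPM. Over the 6 libraries their mean levels ran from 0.0337 CPM per kb for dmd-3 to 1.74 for egl-1, beside 0.164 for mab-3. egl-1, the cell death gene that TRA-1 represses in the HSN neurons of hermaphrodites, was the highest of them per kilobase, with 62, 47 and 73 counts in worms grown 10 per plate and 51, 60 and 52 counts in solitary worms. dmd-3, which shapes the male tail tip, had 0 to 7 counts in worms grown 10 per plate and 1 to 4 counts in solitary worms.

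The genes also differed in how far replicates of one condition spread. The coefficients of variation of fem-3 were 1.35% in worms grown 10 per plate and 1.60% in solitary worms, beside 1.40% from counting alone at its mean count. For tra-2 they were 2.07% in worms grown 10 per plate and 1.33% in solitary worms (counting 1.17%), and with the length trend removed they were 4.80% in worms grown 10 per plate and 3.73% in solitary worms. tra-1 and sdc-2, with 2.75% and 2.70% from counting, spread by 6.45% and 9.01% in worms grown 10 per plate and by 12.7% and 16.5% in solitary worms. Removing the length trend did not narrow this, with 15.3% for tra-1 and 20.0% for sdc-2 among solitary worms. mab-3 spread by 69.2% in worms grown 10 per plate and 40.9% in solitary worms, beside 23.4% from counting. For xol-1 the spread of 10.4% in worms grown 10 per plate and 10.2% in solitary worms was near the 8.73% of counting.

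**Figure D3:**
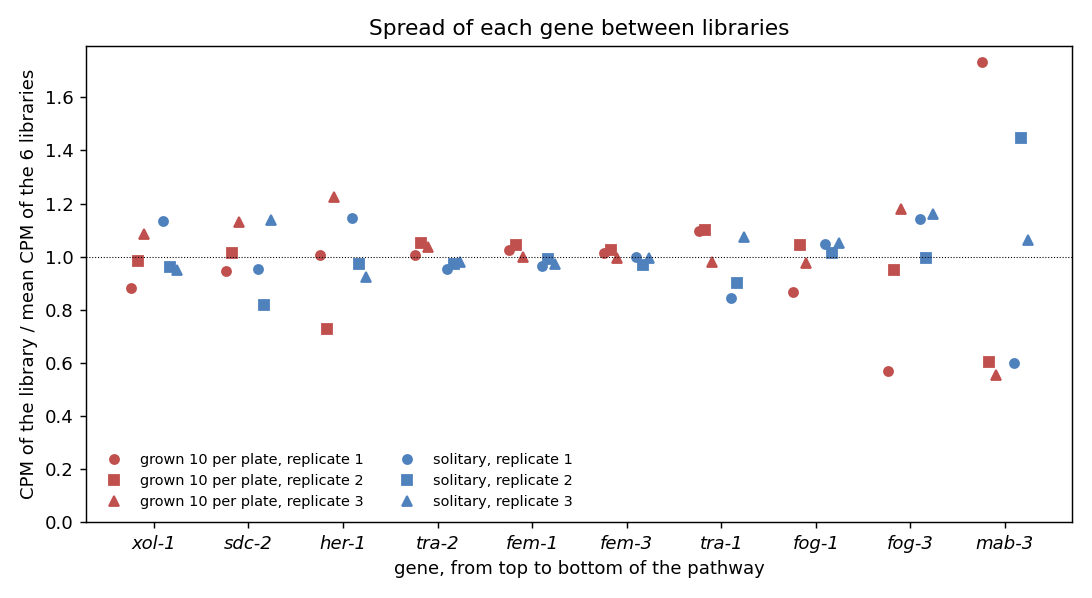
CPM of each gene in each library divided by the gene's mean over the 6 libraries, for worms grown 10 per plate (red, left) and solitary worms (blue, right), with symbols for replicates 1 to 3. fem-1, fem-3 and tra-2 stay within a few percent of 1, tra-1 and sdc-2 spread further, and mab-3 runs highest in replicate 1 of worms grown 10 per plate.

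The fold changes of the 10 genes tended to rise with exonic length (Spearman rho 0.721 over the 10 genes, which share the same 6 libraries, given without a test). At the lengths of the genes the fitted trend ran from -0.04 for fog-3 to 0.14 for sdc-2 on the log2 scale, while the members' own changes ran from -0.29 to 0.17. For xol-1, fog-1 and mab-3 the change was below 0 (-0.05, -0.11 and -0.10) where the fitted trend was above 0 (0.04, 0.02 and 0.01). The trend was not particular to these genes. Of genes averaging at least 100 counts, the shortest of 20 equal length groups (median 399 nucleotides) had a median log2 fold change of -0.21. In the longest group (median 5561) it was 0.11. The part of the trend in the members' values, as against the growth density, was not tested.

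**Figure D4:**
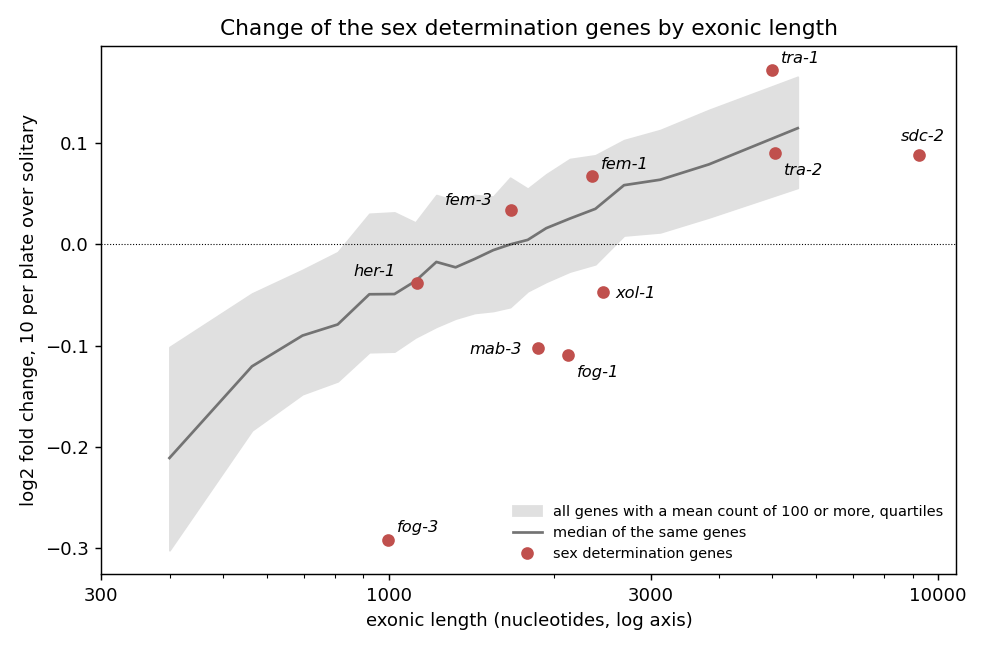
Log2 fold change, grown 10 per plate over solitary, against exonic length (log axis). The line and band are the median and quartiles of 20 equal groups of genes averaging at least 100 counts, and the red points are the 10 sex determination genes, of which tra-1, tra-2 and sdc-2 are the longest.

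The rest of the pathway was read from a further 42 listed genes, of which sex-2 and mog-6 were not matched by symbol and the other 40 were tested. None of the 40 passed the test (0 with an adjusted p under 0.05 in edgeR's quasi-likelihood test and 0 in DESeq2's Wald test). DESeq2 gave no adjusted p for the 6 listed TRA-1 targets and DM-domain genes, so its 0 does not cover them. Of the 40, 6 had an unadjusted p under 0.05 in each tool. In edgeR, 5 of these were higher with 10 worms per plate and 1 was lower (15.0% of the 40, beside 11.9% of all genes tested, or 5.19% higher and 6.71% lower). The conditions did not overlap for 9 of them (22.5%, beside 18.3% of all genes tested), 8 higher and 1 lower, where 8.51% and 9.83% of all genes were. Their median log2 fold change was 0.06 and became -0.00 with the length trend removed, when 20 of the 40 lay above 0 and 2 had an unadjusted p under 0.05, beside 6.9% of all genes tested.

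Among the genes that count X chromosomes or act beside SDC-2, 7 tested genes had log2 fold changes between -0.05 and 0.13. The nuclear receptor gene sex-1 and the homeobox gene ceh-39, both X-linked repressors of xol-1, had changes of 0.11 and 0.04, and the autosomal signal gene sea-1, which activates xol-1, had -0.01 (edgeR quasi-likelihood adjusted p = 0.433, 0.855 and 0.969). ceh-39 and sea-1 were the highest of this list, at 31.1 and 30.2 CPM per kb over the 6 libraries. sdc-3, a partner of SDC-2, had a log2 fold change of 0.13 as counted and of 0.01 with the length trend removed.

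The dosage compensation complex is the condensin-like machine that SDC-2 brings to the X. Of its 7 genes, 4 had an unadjusted p under 0.05 in edgeR's quasi-likelihood test, beside 11.9% of all genes tested. They made up 4 of the 6 such p values in the rest of the pathway. The list is described at more length because of these values, which are no independent evidence about it. The condensin subunit gene dpy-28 measured 163, 155 and 156 CPM in worms grown 10 per plate, against 145, 143 and 144 CPM in solitary worms, a log2 fold change of 0.13 (edgeR quasi-likelihood adjusted p = 0.183). dpy-30, a subunit shared with histone methyltransferase complexes, measured 132, 128 and 128 CPM in worms grown 10 per plate, against 142, 137 and 146 CPM in solitary worms, a log2 fold change of -0.13 (edgeR quasi-likelihood adjusted p = 0.216). The conditions did not overlap for either gene, nor for dpy-28's partner capg-1 (0.11) and dpy-21 (0.15), an H4K20 demethylase, where 18.3% of all genes tested did not overlap. With the length trend removed the 4 log2 fold changes were 0.04 for dpy-28, -0.02 for dpy-30, 0.03 for capg-1 and 0.04 for dpy-21. On the X chromosome, 1438 genes that averaged at least 100 counts had a median log2 fold change of -0.00, against -0.01 for 9024 autosomal genes. With the length trend removed the medians were -0.0132 for the X and -0.0055 for the autosomes.

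Of the other core genes, tra-3, which encodes a calpain protease that cleaves TRA-2, had a log2 fold change of 0.10 (adjusted p = 0.595), tra-4 one of -0.04 (adjusted p = 0.840) and fem-2 one of -0.04 (adjusted p = 0.751, all from edgeR's quasi-likelihood test). fem-2 and cul-2, the partners of FEM-1 and FEM-3, were the most abundant of this list, at 104 and 105 CPM per kb, above fem-3 at 51.7.

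The regulators of germline sex, which govern the making of sperm and the later switch to oocytes, ranged from fbf-2 at 6.09 and fbf-1 at 6.83 CPM per kb over the 6 libraries to mog-3 at 169 and gld-1, whose RNA-binding product represses tra-2 translation, at 584. Of the 16 tested, 2 had an unadjusted p under 0.05, a share close to the 11.9% of all genes tested: mog-5, which encodes an RNA helicase, and gld-2, which encodes a poly(A) polymerase. mog-5 measured 194, 173 and 186 CPM in worms grown 10 per plate, against 169, 168 and 162 CPM in solitary worms, a log2 fold change of 0.15 (edgeR quasi-likelihood adjusted p = 0.231) that was 0.07 with the length trend removed. gld-2 had a log2 fold change of 0.12 (edgeR quasi-likelihood adjusted p = 0.393) and of 0.00 with the trend removed. fbf-1 and fbf-2, near-identical genes whose products repress fem-3 and between which reads may be split or lost, had log2 fold changes of 0.09 and 0.10 (edgeR quasi-likelihood adjusted p = 0.728 and 0.729). fog-2, the F-box gene that lets hermaphrodites make sperm, had a log2 fold change of 0.06 (edgeR quasi-likelihood adjusted p = 0.686).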

How the data were processed

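Per the labels and the study's methods, libraries were made from polyA RNA and read from both ends. After trimming with Trimmomatic 0.36, the authors aligned reads to WBcel235 with STAR 2.5.2b and counted unique exon-mapped reads per gene with featureCounts (Subread 1.5.2). The authors deposited these counts without normalization, and their second, normalized table was not used. Genes with at least 10 counts over the 6 libraries were tested with edgeR 4.0.16 in R 4.3.3 (TMM, robust quasi-likelihood F test of growth density, Benjamini-Hochberg adjustment over all 18428 genes). The SE of a log2 fold change is its size divided by the square root of F, and 95% intervals use the t distribution of the fit. Exonic lengths are unions of exons in Ensembl release 115, as the authors' release is not given in the sources used here. Levels per kilobase are TMM-scaled CPM over that length.

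A length trend was removed as a lowess curve (span 0.3) of each library's log2 ratio to the gene mean against log2 length and entered in the fit as offsets. Other alternatives were DESeq2 1.42.0, its size factors, total counts, no count minimum, filterByExpr, a replicate block and each library left out. The scripts were tested on simulated data. Named genes are the 10 members and, from each other pathway list, up to 3 with the smallest p and up to 2 with the highest level. From the oocyte, vitellogenin and male marker lists they are the 2 with the highest level per kilobase, and cwp-1 at 0. For the sperm markers the rule was not kept: msp-31 was highest per kilobase, and markers at 0 were only counted. No embryo marker was named. Among the TRA-1 targets and DM-domain genes, mab-23 had the smallest p and dmd-5 the next level after egl-1, and neither was described. fbf-1, fbf-2, fog-2, fer-1, pkd-2 and others outside this rule were named after their values were seen. The members and lists were chosen with earlier results of these data known. Labels call the libraries biological replicates without describing separate cultures, so p-values measure the spread between these libraries.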

Additional observations from a re-analysis of the deposited data

How the results depend on the processing

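In edgeR's and DESeq2's tests under 14 alternatives, 0 of the 10 sex determination genes had an adjusted p under 0.05 wherever one was given. DESeq2 gave none for xol-1, her-1, fog-3 and mab-3. The lowest adjusted p in any fit was 0.103, for tra-1 without solitary replicate 3. tra-1, fem-1, fem-3, fog-1 and fog-3 kept their sign in every fit. The log2 fold change of sdc-2 turned to -0.0545 and of tra-2 to -0.0133 with the length trend removed, and to -0.0426 and -0.0137 with the replicate block added. With single libraries left out, xol-1 ran from -0.12 to 0.036, sdc-2 from -0.0263 to 0.22, her-1 from -0.22 to 0.14, mab-3 from -0.84 to 0.21, tra-2 from 0.08 to 0.10, tra-1 from 0.10 to 0.28, fog-1 from -0.17 to -0.04 and fog-3 from -0.54 to -0.05. The libraries whose removal turned a sign were solitary replicate 1 or replicate 1 of worms grown 10 per plate for xol-1, solitary replicate 2 for sdc-2, solitary replicate 1 or replicate 2 of worms grown 10 per plate for her-1, and solitary replicate 2 or replicate 2 or 3 of worms grown 10 per plate for mab-3.

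Over all genes, the 44 with an adjusted p under 0.05 became 435 in DESeq2, 17 with filterByExpr, 745 with no count minimum, 7 with total counts and 0 with the length trend removed, with or without the block. The 2 genes that also passed an absolute log2 fold change of 1 became 1 in DESeq2, 1 with filterByExpr, 57 with no count minimum, 1 with total counts, 0 with the trend removed, with or without the block, and 44 with no fold threshold. Leaving out single libraries gave 0 to 391 and 0 to 70 genes, the highest without solitary replicate 3. The replicate block gave 24 genes with an adjusted p under 0.05. Deviations of same-numbered libraries correlated by 0.15, -0.29 and -0.25. Such values from so few libraries cannot show whether the replicate numbers pair the samples. Of the other pathway genes, 1, mog-5, passed with no count minimum (edgeR quasi-likelihood adjusted p = 0.0467). The causes were not tested. her-1, fog-3 and mab-3, at 10 to 68 counts per library, had wider intervals than tra-2, fem-1 and fem-3, and in worms grown 10 per plate their replicates also spread more than counting gives. The part of depth in this was not tested.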
